A study of Mus musculus with 6 samples.

Results

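Transcription factors linked to the identity of the intestinal absorptive cell were followed as a set of 9 genes, out of the 27998 genes of the deposited matrix, in cells exposed to stress of the endoplasmic reticulum (ER). The set was chosen by name as factors known to act in enterocytes or the wider intestinal epithelium: Cdx1, Cdx2, Hnf4a, Hnf4g, Klf4, Klf5, Gata6, Maf and Prdm1. Each symbol was matched to its Ensembl identifier through the GENCODE annotation, and all 9 were found and had counts in enterocytes. The cells were differentiated monolayers grown from mouse intestinal organoids and profiled by single-cell RNA sequencing, in 3 groups of 2 libraries that the series text calls biological replicates. The first group received the solvent DMSO. The second received 0.5 ug/ml tunicamycin, an inhibitor of N-linked glycosylation that causes ER stress, for 13 h after 12 h in DMSO, and the third received the same dose for 25 h. Treatment began on differentiation day 3 and all groups were harvested on day 4. Every group carried the same labelled genotype, Rosa26-floxed STOP-Cas9 crossed with cmv-cre B6, in which Cre is driven by a broadly active viral promoter, so that the controls carry the Cas9 and Cre alleles as well. The sources used here give no age, sex or number of donor mice.

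CDX1 and CDX2 are homeodomain factors that specify intestinal against foregut fate, and CDX2 goes on driving brush border and digestive genes in the adult epithelium. HNF4A and HNF4G are paired nuclear receptors that occupy enhancers of lipid handling and brush border genes in enterocytes. KLF4 and KLF5 are zinc finger factors, the first known for cell cycle exit and goblet cell maturation and the second for crypt proliferation. GATA6 is a zinc finger factor of intestinal epithelium, MAF supports the transport genes of the mature villus, and PRDM1 holds back the adult gene set in the suckling gut. The comparison of tunicamycin with DMSO asks whether the messenger RNAs of these factors changed under ER stress, and the comparison with their known downstream genes shows whether both moved to a like extent.

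The promoter sequences of 3 members with RefSeq entries are shown because Hnf4a, Klf4 and Cdx2 carry called changes in enterocytes below. Each is the 250 bases before a RefSeq transcription start on GRCm38.p6, written 5' to 3' on the strand of the gene. The Hnf4a window lies at chr2:163546905-163547154 on the plus strand, inside the Hnf4a gene, before an internal start. The Klf4 window lies at chr4:55532476-55532725 and the Cdx2 window at chr5:147307250-147307499, both on the minus strand. Capitals mark GTTAAT, the core of the HNF1 site, on either strand in Hnf4a and Cdx2, and GGGCGG, the GC box bound by Sp and Klf factors, on either strand in Klf4.
Hnf4a: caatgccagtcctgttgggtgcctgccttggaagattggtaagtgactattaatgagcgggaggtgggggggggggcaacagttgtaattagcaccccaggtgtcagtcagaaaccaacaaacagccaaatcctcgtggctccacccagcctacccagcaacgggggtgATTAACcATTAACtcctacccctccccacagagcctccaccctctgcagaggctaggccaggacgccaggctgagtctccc
Klf4: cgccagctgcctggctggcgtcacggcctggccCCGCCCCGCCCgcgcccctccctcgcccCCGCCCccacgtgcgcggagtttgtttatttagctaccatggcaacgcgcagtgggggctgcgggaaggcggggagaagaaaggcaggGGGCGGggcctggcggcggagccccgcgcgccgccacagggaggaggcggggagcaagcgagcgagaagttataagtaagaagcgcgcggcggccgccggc
Cdx2: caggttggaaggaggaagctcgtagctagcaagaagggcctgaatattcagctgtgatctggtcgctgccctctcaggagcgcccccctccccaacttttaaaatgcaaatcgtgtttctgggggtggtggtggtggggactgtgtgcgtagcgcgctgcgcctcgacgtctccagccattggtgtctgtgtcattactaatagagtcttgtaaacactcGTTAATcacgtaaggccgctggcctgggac
The Hnf4a window held GTTAAT at 2 places, 81 and 74 bases before the start, and 0.441% of 32851 RefSeq promoters of the same length held at least 2. A further RefSeq window of Hnf4a, chr2:163506607-163506856, held 0 matches of GTTAAT. The Cdx2 window held it once, 30 bases before the start, and 6.43% of promoters held at least 1. The Klf4 window held 4 GC boxes, the first and second sharing a base, and 4.09% of promoters held at least 4. In these windows, in that further Hnf4a window and in a Prdm1 window (4 members and 5 windows in all), the letters TGATGNAA of the ATF4-CHOP element were not found. The same held for TGACGTGG of the unfolded protein response element, for CCAAT and CCACG spaced by 9 bases, as in the ER stress element, for TTTATG bound by CDX factors and for TGATAA bound by GATA factors. These 5 strings occurred in 3.45%, 0.563%, 0.113%, 10.8% and 7.94% of promoters. Every string was searched in all 5 windows, and no share was adjusted for that. The further Hnf4a window also held 1 GC box, and 32.7% of promoters held at least 1. The CACC box, CCACCC, occurred 2 times in each Hnf4a window, and 7.06% of promoters held at least 2. It occurred 1 time in the Cdx2 window, where 28.1% held at least 1, and not in the Klf4 or Prdm1 window. A match is a string of letters and no measured binding.

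The 5026 cells kept held a median of 14465 to 17298 unique molecular identifiers (UMIs) per library. The authors' class named enterocyte held 1046 and 1037 cells in the DMSO libraries, 686 and 726 after 13 h and 426 and 447 after 25 h. The class named goblet held 75 to 109 cells and the class named tuft 12 to 27 cells per library. Alpi, the brush border alkaline phosphatase, stood at 255 to 271 CPM in DMSO enterocytes and 48.0 to 50.4 CPM in DMSO goblet cells, and Tff3, a goblet peptide, at 1647 to 1694 against 96812 to 109570 CPM. The 12 enterocyte markers that include Alpi separated the classes less, with sums of 4175 to 4205 CPM in DMSO enterocytes and 3313 to 3380 in DMSO goblet cells. Markers of tuft, enteroendocrine, fibroblast and immune cells were each below 5 CPM in sum in every enterocyte library. Paneth markers summed to 7.45 to 8.92 CPM in DMSO enterocytes, 8.20 to 10.8 at 13 h and 2.88 to 7.43 at 25 h. Stem and proliferating markers summed to 41.2 to 44.7 CPM in DMSO enterocytes, 39.0 to 41.1 at 13 h and 24.7 to 28.8 at 25 h. A list of 7 genes of small intestinal regions summed to 1704 to 1750 CPM in DMSO enterocytes, 1357 to 1432 at 13 h and 1040 to 1062 at 25 h. Its most abundant gene in DMSO was the ileal bile acid transporter Slc10a2, at 735 and 718 CPM in the 2 DMSO libraries, and Gata4 and Lct were at 0 UMIs in enterocytes. In all 86163736 UMIs Gata4 had 0, which allows up to 0.0348 CPM, and Fabp1, an enterocyte gene outside that list, had 3. The colonic gene Car1 was present at 1560 to 3058 CPM in enterocytes, while Hoxb13 and Hoxd13 had 0 UMIs. The tissue tag of the labels says small intestine and the growth protocol says colonic spheroids. Hspa5, the ER chaperone BiP, rose from 159 and 214 CPM in DMSO enterocytes to 4992 and 5120 at 13 h and 2916 and 3155 at 25 h. With treatment, enterocyte and goblet markers moved as well: the summed level of 12 enterocyte markers in enterocytes was 4175 to 4205 CPM in DMSO, 2551 to 2749 at 13 h and 2028 to 2244 at 25 h. That of 11 goblet markers in goblet cells was 196756 to 214712, 109751 to 117704 and 76959 to 97087 CPM. The share of mitochondrial UMIs in kept cells was 8.99% and 9.0% in the DMSO libraries, 8.43% and 8.84% after 13 h and 7.52% and 7.24% after 25 h. The part of these shifts in the values below was not tested.

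In enterocytes 1 of the 9 factors rose and 5 fell at 13 h, all by less than a fold of 2. At 13 h Gata6 rose and Cdx1, Cdx2, Hnf4a, Klf4 and Maf fell, while Hnf4g, Klf5 and Prdm1 did not pass the test. At 25 h Gata6 was above DMSO, and Hnf4a, Klf4 and Maf were below it. The 6 of 9 factors called at 13 h stand beside 47.6% of all 11145 genes tested, and the 4 of 9 called at 25 h beside 50.3%, so that neither count stands apart from the background (edgeR quasi-likelihood test, Benjamini-Hochberg adjusted p under 0.05). Of all genes, 23.8% were called higher and 23.8% lower at 13 h, and 26.1% higher and 24.2% lower at 25 h. The 2 libraries of each group did not overlap for 7 of 9 factors at 13 h and 5 of 9 at 25 h, against 74% and 75.1% of all genes. None of the 9 reached a fold of 2 at either time, beside 7.87% of genes at 13 h and 10.4% at 25 h. With 9 genes this count does not stand apart from the background either. The median log2 fold change over the 9 was -0.14 at 13 h and -0.09 at 25 h, beside 0.01 and 0.03 over all genes tested. Both tunicamycin groups were compared with the same 2 DMSO libraries. All levels are CPM, from UMIs summed over the cells of a class and divided by the TMM-scaled total of the library. Levels are given for each library, and errors of log2 values are standard errors (SE) from the fit.

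**Figure D1:**
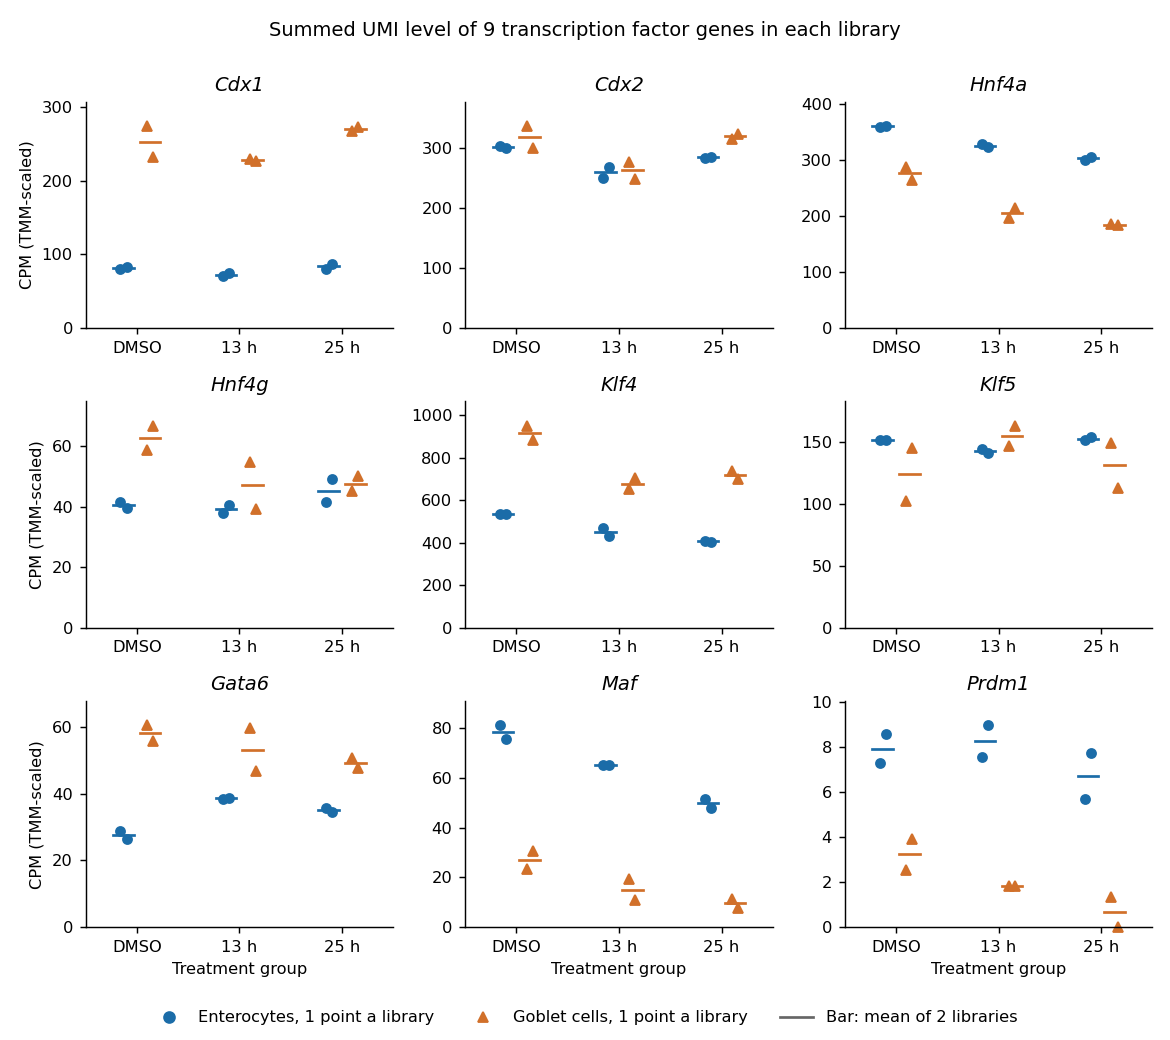
Level of each of the 9 genes in CPM (linear axes from 0) in enterocytes (circles) and goblet cells (triangles), 1 point for each library, with a bar at the mean of the 2 libraries of a group. Maf steps down from 78.4 to 65.1 and 49.8 CPM in enterocytes and Gata6 stands higher in both tunicamycin groups than in DMSO.

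The CDX pair was lower at 13 h and near its DMSO level at 25 h. Cdx2 (chr5:147300805-147307270, GRCm38) stood at 304 and 301 CPM in DMSO enterocytes, 251 and 269 after 13 h and 284 and 285 after 25 h. Both 13 h libraries lay below all others, and the 25 h libraries lay between them and DMSO. The 13 h change was -0.22 ± 0.05 on the log2 scale (edgeR adjusted p = 0.00170), and the 25 h value of -0.09 ± 0.05 did not pass (edgeR adjusted p = 0.151) except without the low-count filter (edgeR adjusted p = 0.0411). Cdx1 (chr18:61018862-61036199) stood at 80.4 and 82.5 CPM in the DMSO libraries, 70.6 and 74.2 after 13 h and 80.3 and 87.2 after 25 h. The 13 h libraries were again the lowest, and DMSO and 25 h overlapped. Its change was -0.17 ± 0.05 at 13 h (edgeR adjusted p = 0.0195) and 0.04 ± 0.06 at 25 h (edgeR adjusted p = 0.570). The 13 h call for Cdx1 did not pass without DMSO replicate 2 (edgeR adjusted p = 0.0726) or without 13 h replicate 1 (edgeR adjusted p = 0.0806), with libraries scaled by total counts (0.0933), with DESeq2 (0.141) or with cells thinned to equal depth (edgeR adjusted p = 0.312).

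Of the HNF4 pair, Hnf4a fell and Hnf4g did not pass. Hnf4a (chr2:163506808-163572910), whose internal promoter is printed above, stood at 360 and 360 CPM in the DMSO libraries, 328 and 323 after 13 h and 300.4 and 305 after 25 h. The 3 groups did not overlap. The change was -0.14 ± 0.04 at 13 h (edgeR adjusted p = 0.0128) and -0.25 ± 0.04 at 25 h (edgeR adjusted p = 0.000286). Against DMSO, Hnf4a fell by 9.55% at 13 h and fell by 15.9% at 25 h. The 13 h call was lost without 13 h replicate 2 (edgeR adjusted p = 0.0510) and with total-count scaling (edgeR adjusted p = 0.102), and at 25 h the change reached -0.42 when every cell was thinned to 5000 UMIs. Hnf4g (chr3:3508030-3658052) stood at 41.7 and 39.6 CPM in the DMSO libraries, 37.8 and 40.5 after 13 h and 41.4 and 49.2 after 25 h. One 25 h library lay within the DMSO range and the other above it. Its changes were -0.05 ± 0.08 (edgeR adjusted p = 0.594) and 0.16 ± 0.08 (edgeR adjusted p = 0.112), and the latter passed without 25 h replicate 1 at 0.25 (edgeR adjusted p = 0.0260) and with total-count scaling at 0.21 (edgeR adjusted p = 0.0411).

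The 2 Kruppel-like factors differed. Klf4 (chr4:55527143-55532466), a factor of cell cycle exit, stood at 535 and 538 CPM in the DMSO libraries, 470 and 433 after 13 h and 410 and 403 after 25 h. Every treated library lay below both DMSO libraries. It changed by -0.25 ± 0.05 at 13 h (edgeR adjusted p = 0.000700) and -0.40 ± 0.05 at 25 h (edgeR adjusted p = 1.07e-05), so that at 25 h it fell by 24.1%. Klf5 (chr14:99298691-99315036), a factor of proliferating crypt cells, stood at 152 and 152 CPM in the DMSO libraries, 144 and 141 after 13 h and 151 and 154 after 25 h. Its 13 h libraries were slightly below the rest, and the 25 h libraries straddled DMSO. The values of -0.09 ± 0.04 at 13 h (edgeR adjusted p = 0.118) and 0.01 ± 0.05 at 25 h (edgeR adjusted p = 0.890) did not pass.

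Gata6 was the only member called higher in enterocytes against DMSO. Gata6 (chr18:11052064-11085635) stood at 28.9 and 26.5 CPM in the DMSO libraries, 38.5 and 38.6 after 13 h and 35.8 and 34.6 after 25 h. All 4 treated libraries lay above both DMSO libraries. The change was 0.48 ± 0.07 at 13 h (edgeR adjusted p = 4.68e-05), a fold of 1.39, and 0.34 ± 0.07 at 25 h (edgeR adjusted p = 0.00151), a fold of 1.27. Among all genes tested these changes stood at the 85.7th and 73.8th percentile. The gene 1010001N08Rik overlaps exons of Gata6 on the opposite strand, and it was at 7.87 and 6.84 CPM in the DMSO libraries, 10.5 and 10.5 after 13 h and 10.6 and 13.95 after 25 h. The 10x assay keeps the strand of the RNA, the sources used here do not state the strand setting of the counting, and the part of reads counted for the opposite gene was not tested. Gata5, a paralog from the list of other factors, moved the other way, from a mean of 31.3 CPM in DMSO to 16.4 at 13 h and 16.7 at 25 h (edgeR adjusted p = 9.50e-07 and 3.28e-06).

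Maf had the largest change among the 9 in enterocytes at 25 h. Maf (chr8:115682942-115707794) stood at 81.1 and 75.7 CPM in the DMSO libraries, 65.0 and 65.3 after 13 h and 51.5 and 48.1 after 25 h. The 3 groups did not overlap. The change was -0.27 ± 0.06 at 13 h (edgeR adjusted p = 0.00109) and -0.66 ± 0.06 at 25 h (edgeR adjusted p = 7.24e-07), a fold of 0.634 that stood at the 9.74th percentile of all genes. Gm15655, which overlaps Maf exons, had 0 UMIs. Prdm1 (chr10:44437177-44528501), a repressor of the adult enterocyte programme, was scarce, with 45 to 140 UMIs per enterocyte library. It stood at 7.28 and 8.55 CPM in the DMSO libraries, 7.56 and 8.95 after 13 h and 5.67 and 7.73 after 25 h, and all groups overlapped. Its values of 0.07 ± 0.16 (edgeR adjusted p = 0.755) and -0.23 ± 0.18 (edgeR adjusted p = 0.309) did not pass, and at this depth a change of the size of that of Hnf4a could not be detected.

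**Figure D2:**
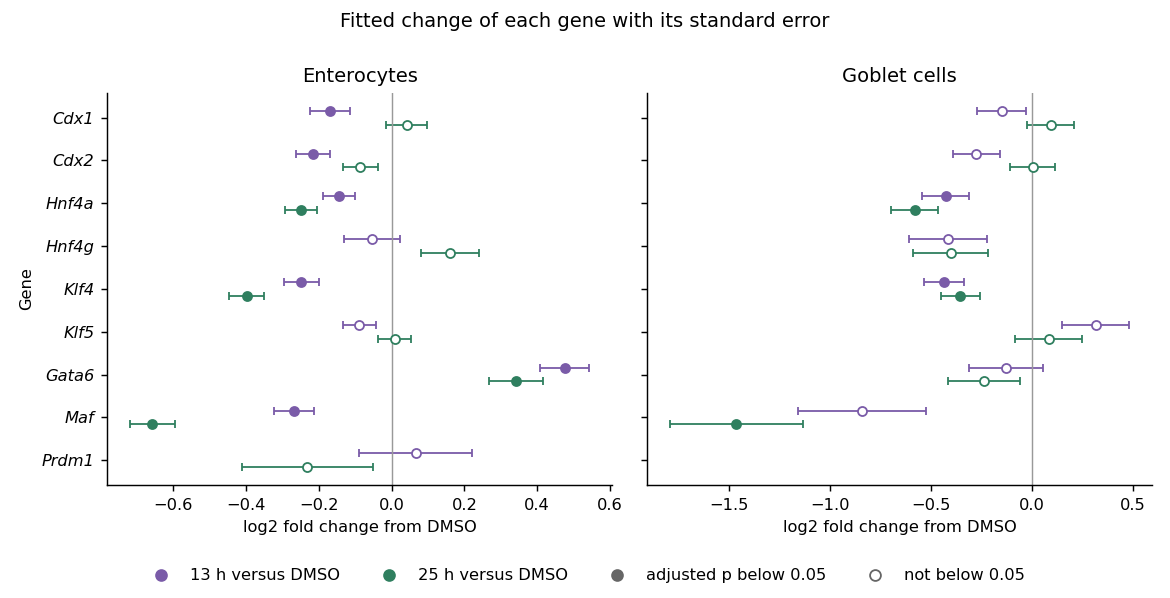
Fitted log2 fold change from DMSO of each gene (points) with its SE (bars) at 13 h and 25 h in enterocytes and goblet cells; filled points have an edgeR adjusted p under 0.05. In enterocytes Gata6 lies right of 0 and Maf and Klf4 left of it at both times, and Prdm1 has no goblet value because its counts there were too low to test.

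Between 13 h and 25 h Maf fell further, by 0.39 on the log2 scale (SE 0.06, edgeR adjusted p = 0.000607). Cdx1 rose by 0.21 ± 0.06 (edgeR adjusted p = 0.0200) and Klf4 fell by 0.15 (SE 0.05, edgeR adjusted p = 0.0431). These 3 of 9 factors stand beside 21.4% of all genes called. For 8 of the 9 the 2 libraries of one time did not overlap those of the other, beside 60.2% of all genes. Cdx2 and Hnf4g had positive values of 0.13 ± 0.05 (edgeR adjusted p = 0.0729) and 0.21 ± 0.08 (edgeR adjusted p = 0.0843), and Hnf4a and Gata6 negative ones of -0.10 ± 0.04 (edgeR adjusted p = 0.112) and -0.13 ± 0.07 (edgeR adjusted p = 0.226). The Klf4 call did not pass with the replicate block (0.0561), the stricter cell filter (0.425), thinned cells (0.463) or only the 2 groups compared (0.0622), each an edgeR adjusted p, or with DESeq2 (adjusted p = 0.103). It also did not pass without DMSO replicate 1 (0.0646), DMSO replicate 2 (0.0645), 13 h replicate 1 (0.329) or 25 h replicate 2 (0.0957), each an edgeR adjusted p. The Cdx1 call did not pass without 13 h replicate 1 (0.123) or 25 h replicate 2 (0.202), with the stricter cell filter (0.0821) or thinned cells (0.310), each an edgeR adjusted p, or with DESeq2 (adjusted p = 0.175). Without 25 h replicate 1 the Hnf4g value passed (edgeR adjusted p = 0.0181), with thinned cells the Hnf4a value passed (edgeR adjusted p = 0.0288), and the Maf call was lost only when cells were thinned to equal depth (edgeR adjusted p = 0.232).

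In goblet cells, the mucus-secreting class, Hnf4a and Klf4 were lower than DMSO at both times and Maf at 25 h. Prdm1 had 0 to 5 UMIs per library there and was not tested. Of the 8 members tested, 2 were called at 13 h beside 22.4% of 7839 genes (10.8% higher, 11.5% lower), 3 at 25 h beside 31.8% (15.8% higher, 16% lower), and 0 between 13 h and 25 h beside 3.5% (edgeR; 1 member had an unadjusted p under 0.05 there, and DESeq2 called 0). Hnf4a stood at 288 and 264 CPM in the DMSO libraries, 196 and 214 after 13 h and 186 and 183 after 25 h, with no overlap of the treated libraries with DMSO. It changed by -0.43 ± 0.12 at 13 h (edgeR adjusted p = 0.0120) and -0.58 ± 0.12 at 25 h (edgeR adjusted p = 0.000663). Klf4 stood at 952 and 883 CPM in the DMSO libraries, 651 and 704 after 13 h and 736 and 698 after 25 h. All treated libraries were below DMSO, with changes of -0.44 ± 0.10 (edgeR adjusted p = 0.00304) and -0.35 ± 0.10 (edgeR adjusted p = 0.00872). Maf stood at 23.5 and 30.7 CPM in the DMSO libraries, 19.2 and 11 after 13 h and 11.5 and 7.82 after 25 h, from 10 to 39 UMIs per library. Its values were -0.84 ± 0.32 at 13 h (edgeR adjusted p = 0.0627) and -1.47 ± 0.33 at 25 h (edgeR adjusted p = 0.00181). Cdx1, Cdx2, Hnf4g, Klf5 and Gata6 did not pass in goblet cells at either time, with log2 values between -0.41 and 0.32.

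Scaling moved the goblet values. Tff3 alone stood at 96812 to 109570 CPM in DMSO goblet cells and at 44985 to 60033 CPM in the treated ones. Scaling by total counts in place of TMM moved the median of all genes from -0.01 to 0.16 on the log2 scale at 13 h and from 0.00 to 0.13 at 25 h. The share of called goblet genes that were higher went from 48.4% to 68.4% at 13 h and from 49.6% to 63.8% at 25 h. Under that scaling no member was called lower and Klf5 was called higher at 13 h, and Hnf4a and Maf were called lower at 25 h. The 13 h goblet calls also rested on single libraries: without DMSO replicate 1 the edgeR adjusted p was 0.121 for Hnf4a and 0.0650 for Klf4, and without 13 h replicate 1 it was 0.123 and 0.0539. With thinned cells it was 0.0647 and 0.0878, and Klf5 was called higher (edgeR adjusted p = 0.04996), while with DESeq2 the adjusted p for Hnf4a was 0.103. The goblet Maf value at 13 h passed without 13 h replicate 1 (edgeR adjusted p = 0.0385), without the low-count filter (0.0360) and with the stricter cell filter (0.0407), and the Klf4 call at 25 h did not pass without DMSO replicate 1 (edgeR adjusted p = 0.108). Hnf4a and Maf at 25 h passed in every alternative run.

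The level of each factor also differed between the classes. These are descriptions without a test, since the classes were assigned from the same cells. CPM were scaled within each class, so the ratios are not corrected for the large share of goblet markers in goblet cells. The 11 goblet markers summed to 196756 to 214712 CPM in DMSO goblet cells and 76959 to 97087 at 25 h. The part of this share in the ratios was not tested. Cdx1 was 2.81 to 3.41 times higher in goblet cells than in enterocytes of the same library, in all 6 libraries. Klf4 was 1.39 to 1.79 times higher. Maf was the reverse, at 0.163 to 0.405 of the enterocyte level, and Hnf4a was at 0.598 to 0.801 of it. Cdx2 stood at 0.923 to 1.14 and Klf5 at 0.675 to 1.16, so that neither class was the higher in all libraries. The Gata6 ratio was 2.09 and 2.11 in DMSO and 1.21 to 1.55 in the 4 treated libraries, and that of Hnf4g was 1.41 and 1.69 in DMSO and 0.974 to 1.45 in the treated ones. For scale, the enterocyte gene Alpi had ratios of 0.10 to 0.188, while the sums of the 12 enterocyte markers lay closer together in the classes. In the tuft class, with 12 to 27 cells, Maf had 1 to 7 UMIs per library. Klf4 there, scaled by total counts, stood at 205 and 355 CPM in DMSO, 186 and 179 after 13 h and 337 and 208 after 25 h. The 25 h values lay within the DMSO range.

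**Figure D3:**
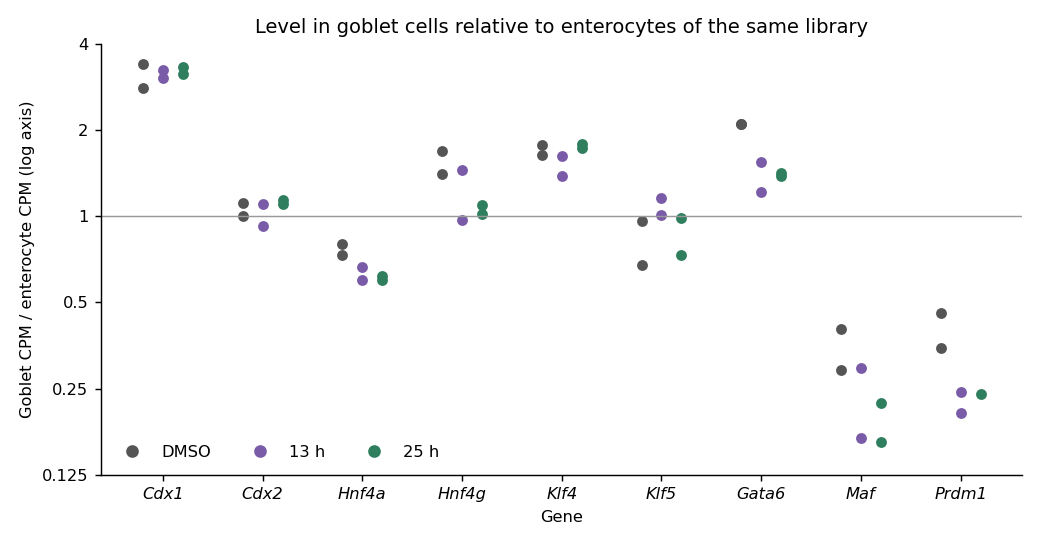
Ratio of goblet to enterocyte CPM in the same library for each gene on a log axis, 1 point for each library, coloured by group. Cdx1 and Klf4 lie above 1 and Hnf4a and Maf below 1 in all 6 libraries; the 25 h library with 0 goblet UMIs of Prdm1 is not drawn.

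The difference in response between the classes was tested as an interaction. At 13 h none of the 9 passed, beside 4.81% of 10458 genes (edgeR; 4 of the 9 had an unadjusted p under 0.05). At 25 h Hnf4a alone passed, beside 7.06% of genes, with a goblet response lower than the enterocyte response by 0.37 on the log2 scale (SE 0.12, edgeR adjusted p = 0.0466). Gata6 had a value of -0.65 ± 0.20 at 13 h (edgeR adjusted p = 0.0535) and -0.63 ± 0.20 at 25 h (edgeR adjusted p = 0.0508), so its enterocyte rise and its goblet values were not separated by this test. The value for Hnf4g at 25 h was -0.60 ± 0.20 (edgeR adjusted p = 0.0695) and that for Maf -0.86 ± 0.33 (edgeR adjusted p = 0.124). The Hnf4a call was lost with total-count scaling (0.278), without the low-count filter (0.0579), with the stricter cell filter (0.1255) and without DMSO replicate 1 (0.389), DMSO replicate 2 (0.185), 25 h replicate 1 (0.377) or 25 h replicate 2 (0.259), each an edgeR adjusted p. Without DMSO replicate 2, Klf5 passed at 13 h (edgeR adjusted p = 0.0250). Total-count scaling moved the share of called genes with a higher goblet response from 30.8% to 59.0% at 13 h and from 36.2% to 59.0% at 25 h.

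Genes known to lie downstream of HNF4 had larger median changes than the 9 factors. Of all 11145 enterocyte genes tested, 23.8% were lower and 23.8% higher at 13 h, and 24.2% lower and 26.1% higher at 25 h. Of 18 absorptive genes downstream of HNF4, 16 were tested in enterocytes. Of these, 13 fell and 0 rose at 13 h, and 15 fell and 0 rose at 25 h. Their median log2 change was -0.75 at 13 h and -1.28 at 25 h, where Hnf4a itself was at -0.14 and -0.25. Apoc3, an apolipoprotein, went from a mean of 385 CPM in DMSO to 70.3 at 25 h (-2.45 ± 0.07, edgeR adjusted p = 3.48e-12). Apoa4, an apolipoprotein of chylomicrons, went from 165 to 30.6 CPM (-2.44 ± 0.11, edgeR adjusted p = 3.78e-10). Fabp2, a fatty acid binding protein, went from 583 to 139 CPM (-2.07 ± 0.06, edgeR adjusted p = 5.98e-12), and Alpi from 263 to 72.5 CPM (-1.85 ± 0.07, edgeR adjusted p = 7.97e-11). Sis, sucrase-isomaltase, was the member not called at 25 h (0.02). In goblet cells 10 of 11 tested fell at 13 h and 11 of 11 at 25 h, with medians of -1.06 and -1.55. Of all 7839 goblet genes tested, 11.5% were lower at 13 h and 16% at 25 h. The marker sums above hold some of the same genes.

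The list downstream of CDX2 holds Cdx1 and Hnf4a themselves and shares Sis and Vil1 with the HNF4 list. In enterocytes 9 of 11 tested genes were lower and 2 higher at 13 h, beside 23.8% and 23.8% of all genes. At 25 h 7 were lower and 0 higher, beside 24.2% and 26.1%. The medians were -0.31 and -0.36, beside -0.22 and -0.09 for Cdx2. The 2 higher genes, named after their values were seen, were Cdh17, an intestinal cadherin (0.14), and Heph, an iron oxidase (0.18). At 25 h Mep1a, a brush border metalloprotease, changed by -0.90 ± 0.05 (edgeR adjusted p = 1.61e-09), Vil1, the actin bundler villin, by -0.76 ± 0.05 (edgeR adjusted p = 8.44e-09), Krt20, a keratin of differentiated cells, by -0.66 ± 0.05 (edgeR adjusted p = 8.15e-08) and Guca2a, guanylin, by -0.41 ± 0.05 (edgeR adjusted p = 9.83e-06). Sis went from a mean of 236 CPM in DMSO to 181 at 13 h and 239 at 25 h, and between 13 h and 25 h it rose by 0.41 ± 0.05 (edgeR adjusted p = 6.49e-05). In goblet cells 7 of 11 genes were lower at 13 h, beside 11.5% of all genes, and 6 of 11 at 25 h, beside 16%. At either time 0 were higher, beside 10.8% and 15.8%.

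The transport genes downstream of MAF split, and their list shares Anpep and Slc6a19 with the HNF4 list. Of 8 tested in enterocytes, 6 fell and 2 rose at 25 h, beside 24.2% and 26.1% of all genes. The median of the 8 was -0.64. Slc5a1, the sodium-glucose transporter SGLT1, went from 33.8 to 8.33 CPM (-2.02 ± 0.11, edgeR adjusted p = 1.90e-09), and Slc15a1, a peptide transporter, from 87.3 to 30.0 CPM (-1.54 ± 0.10, edgeR adjusted p = 1.65e-08). Anpep, an aminopeptidase, was at 30.2 CPM in DMSO, 8.30 at 13 h and 15.2 at 25 h. Slc7a7, a cationic amino acid exporter, rose from 37.0 to 80.1 CPM (1.11 ± 0.06, edgeR adjusted p = 1.33e-09). The other gene that rose, named after its value was seen, was the fructose transporter Slc2a5 (1.07). At 13 h, 4 fell and 1 rose, beside 23.8% and 23.8% of all genes.

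The genes that PRDM1 is known to hold or release at weaning had 6 of 6 tested lower at 13 h, beside 23.8% of all genes. At 25 h 4 of 6 were lower, beside 24.2%, although Prdm1 did not pass. The list holds genes of both the suckling and the adult state. Fcgrt, the neonatal Fc receptor, changed by -1.06 ± 0.10 at 25 h (edgeR adjusted p = 1.10e-06). Treh, the adult brush border trehalase, changed by -1.62 ± 0.14 at 25 h (edgeR adjusted p = 3.04e-07). Lct had too few counts to test. Sis and Treh of this list are also in the HNF4 list, and Sis and Lct in the CDX2 list. Readouts of the Wnt and BMP pathways, which pattern crypt and villus, had 5 of 8 lower and 1 higher at both times. Of all genes, 23.8% were lower and 23.8% higher at 13 h, and 24.2% lower and 26.1% higher at 25 h. Smad7, a feedback inhibitor, went from 107 to 52.5 CPM at 25 h (-1.02 ± 0.05, edgeR adjusted p = 1.90e-09), Id3, a BMP target, from 626 to 333 CPM (-0.91 ± 0.05, edgeR adjusted p = 4.86e-09), and Axin2, a Wnt target, from 39.7 to 17.9 CPM (-1.15 ± 0.10, edgeR adjusted p = 2.36e-07). The gene called higher, named after its values were seen, was Myc (1.90 at 13 h and 1.54 at 25 h), with a mean over all libraries of 2.01 CPM.

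Among 35 other epithelial transcription factors, which share Creb3l3 with the HNF4 list and Isx with the CDX2 list, 31 were tested in enterocytes. At 13 h 6 were higher and 13 lower, beside 23.8% and 23.8% of all genes. At 25 h 4 were higher and 14 lower, beside 26.1% and 24.2%. The medians of -0.15 and -0.14 lay close to those of the 9. The vitamin D receptor Vdr went from 286 to 163 and 128 CPM (-1.16 ± 0.05 at 25 h, edgeR adjusted p = 8.27e-11). Hes1, the Notch effector, went from 42.8 to 17.2 CPM at 25 h (-1.31 ± 0.08, edgeR adjusted p = 6.61e-09), and the epithelial ETS factor Elf3 from 480 to 298 CPM (-0.69 ± 0.05, edgeR adjusted p = 3.20e-08). Also lower at 25 h were Gata5, Foxa1, Rxra, Nr1h4, Nr1i2, Ppard, Creb3l3, Isx, Tcf7l2, Ehf and Esrra, with log2 changes from -0.26 to -1.82. The 4 higher at 25 h were Mafg, a small MAF protein (0.51 ± 0.07, edgeR adjusted p = 2.53e-05), Nr5a2 (0.47), Zfp36l1 (0.18) and Klf6 (0.15). At 13 h Nr2f6 and Pparg were also lower, and Hopx, Klf3 and Yy1 also higher. In goblet cells 1 of 27 tested was higher and 6 lower at 25 h, beside 15.8% and 16% of all genes. The 1 higher was Mafg (1.20 ± 0.24, edgeR adjusted p = 0.000616).

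**Figure D4:**
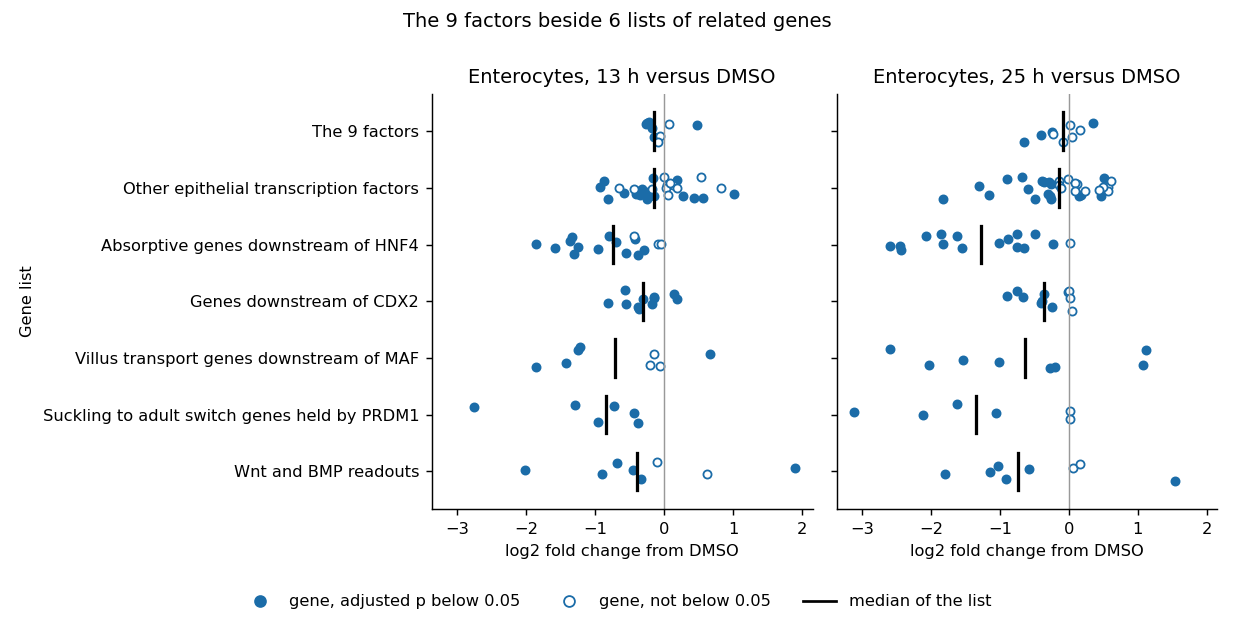
Log2 fold change from DMSO in enterocytes of each tested gene of the 9 factors and of 6 related gene lists (points; filled where the edgeR adjusted p is under 0.05), with the median of each list as a bar. The 9 factors centre on -0.14 and -0.09, and the list downstream of HNF4 on -0.75 at 13 h and -1.28 at 25 h.

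The share of enterocytes with at least 1 UMI was lower at 25 h than in DMSO for Maf and higher for Gata6, at every depth examined. After every cell was thinned to 5000 UMIs, leaving out 75 of the 5026 cells for having fewer, Maf was detected in 30.1% and 27.2% of DMSO enterocytes, 25.4% and 23.3% at 13 h, and 22.6% and 20.3% at 25 h. Without thinning the Maf shares were 57.3% and 52.2%, 52.5% and 53.6%, and 46.2% and 42.7%. Gata6 was detected in 12.2% and 11.6%, 16.4% and 16.1%, and 16.7% and 16.3% of thinned enterocytes, and in 34.5% and 33.3%, 44.5% and 46.1%, and 44.6% and 44.5% unthinned. Klf4 was detected in 88.5% and 88.9% of thinned DMSO enterocytes, 83.6% and 80.3% at 13 h and 84.9% and 83.3% at 25 h, so that its shares at 25 h did not lie below those at 13 h although its CPM did. Hnf4a was detected in 80.4% and 82.2%, 76.1% and 77.2%, and 73.6% and 71.6% of thinned cells, and unthinned in 96.2% to 97.8% in every library. In 25 h against DMSO the thinned shares of both libraries were lower for Hnf4a, Klf4 and Maf, beside 27.6% of the 11145 genes tested, and higher for Cdx1 and Gata6, beside 35.1%. The Cdx1 shares turned with depth: they were 30.4% and 29.6% in DMSO and 37.7% and 31.4% at 25 h at 5000 UMIs, but 22.8% and 22.3% against 21.1% and 21.3% at 3000 UMIs, so no direction is given for them. Unthinned, 4 of the 9 were higher in both 25 h libraries, beside 56.9% of genes, and at 3000 UMIs 5 of the 9 were lower, beside 26.4%. None of the 3 classes is known to lack these genes, and the part of free RNA in the shares was not tested. For scale, the goblet gene Zg16 stood at 174 and 236 CPM in DMSO enterocytes and at 65100 and 64140 CPM in DMSO goblet cells. With 2 libraries a group an exact permutation test cannot pass, and none was run on shares. The variance of thinned Maf counts across enterocytes was 1.18 to 1.37 times their mean in each library, and that of Gata6 0.932 to 1.11 times. The 100 genes nearest in mean had median ratios of 1.04 to 1.06 for Maf and 1.00 to 1.04 for Gata6. Maf lay above 92 to 99 of its 100 nearest genes in each library, and Gata6 above 6 to 83, as a description with no test.

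**Figure D5:**
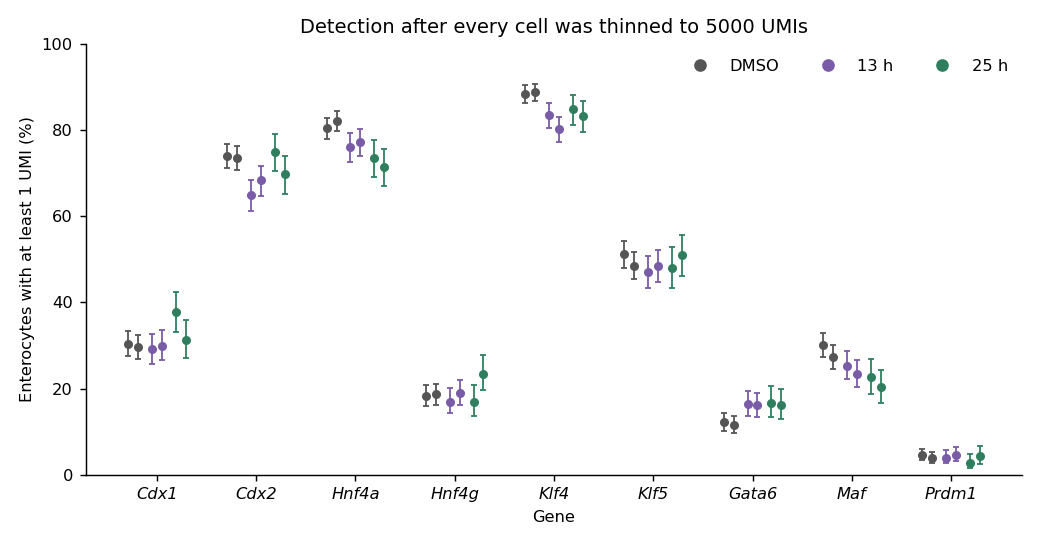
Percentage of enterocytes with at least 1 UMI of each gene after thinning every cell to 5000 UMIs, 1 point for each library, with 95% exact binomial (Clopper-Pearson) intervals that cover counting error only. Maf falls from 30.1% and 27.2% in DMSO to 22.6% and 20.3% at 25 h, and Gata6 is above its DMSO shares in all 4 treated libraries.

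The genes most like each factor were found by the root mean square difference of centred log2 CPM over 12 sums (6 libraries in enterocytes and goblet cells) among 6933 genes, as a description with no test. Library and class differences are shared by all points. Among the nearest to Maf were Abcg5, a sterol exporter (0.139), and Amn (0.208). Nearest to Gata6 were Tmed10 (0.0958), Golgb1 (0.0960) and Os9 (0.113), genes of the secretory pathway. Nearest to Hnf4a were Myh14 (0.0562), Pcgf3 (0.0684) and Ccni (0.0748). Klf4 was nearest to Tpd52 (0.0983), Cdx1 to Tpm4 (0.132), Cdx2 to Dcbld1 (0.0842), Hnf4g to Pacsin2 (0.116) and Klf5 to Ehmt2 (0.0725). Prdm1 lay below the level of 10 CPM set for this search.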

How the data were processed

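The authors deposited raw counts, each the number of unique molecular identifiers (UMIs) of a gene in a cell, for 27998 genes and 5122 cells. The submitters' processing notes name Cell Ranger and mm10. The counts came from 10x Genomics 3' V2 libraries, per the labels' protocols. The authors' class and the library were read from each cell name, and 12 barcodes occurred in more than 1 library. Kept were 5026 cells (minimum 1000 UMIs and 500 genes, mitochondrial share no higher than 25%), and no doublet caller was run. Symbols came from GENCODE and matched 27645 identifiers.

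UMIs were summed per library and class. All 6 libraries entered 1 fit per class, with filterByExpr, TMM scaling and the two-sided edgeR quasi-likelihood test (version 4.0.16, R 4.3.3), adjusted by Benjamini-Hochberg over all 11145 (enterocyte) or 7839 (goblet) genes. Responses of the classes were compared as an interaction with library as block. In data simulated for 25 h against DMSO, 68% of enterocyte genes changed by 0.5 on the log2 scale were recovered (10982 genes) and 32% of goblet genes (7580). The changed genes were drawn only from those above a minimum count in DMSO, and all genes were given the same spread. These shares therefore do not cover scarce genes such as Maf in goblet cells. DESeq2 1.42.0, total-count scaling, no low-count filter, other cell filters, thinning, a replicate block and leaving out each library were alternatives.

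The 9 factors and all lists were chosen with earlier results of these data known. All 9 factors were named. Of each list the text names up to 4 called genes of at least 10 CPM with the largest change, and the other factors that passed. Lists are described by counts and medians.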

Additional observations from a re-analysis of the deposited data

Results flagged for a closer look

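The change of Hnf4a at 25 h differed between the classes: the goblet response minus the enterocyte response was -0.37 on the log2 scale (SE 0.12, edgeR adjusted p = 0.0466 for the interaction). Hnf4a was lower in both 25 h libraries than in both DMSO libraries in each class, by 0.58 in goblet cells and 0.25 in enterocytes. The call did not hold in 7 of the 9 alternatives, over which the edgeR adjusted p ran from 0.0454 to 0.389, and the value stayed negative in all of them.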

How the results depend on the processing

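Of 876 values of single members under alternative settings, 784 kept their direction and their side of the threshold, 40 lost and 11 gained a call, and 41 changed sign. None of the 41 was a value called in the first place. Most of the 876 come from values not called, which count as kept while they stay uncalled with the same sign. The 40 lost calls can come only from the smaller part that was called. In enterocytes Gata6, Klf4, Maf and, at 13 h, Cdx2 and, at 25 h, Hnf4a were called against DMSO in all 14 alternatives. The number of members called lower at 13 h in enterocytes was 3 with total-count scaling, and the number higher at 25 h was 2 with total-count scaling and 1 to 2 with single libraries left out. Between 13 h and 25 h, 0 members were higher with DESeq2, the stricter cell filter or thinned cells and 0 to 2 with a library left out. There, 1 was lower with the replicate block, DESeq2, the stricter filter, thinned cells or only the 2 groups compared, and 1 to 2 with a library left out. At 13 h in goblet cells 1 member was higher with total-count scaling or thinned cells, and 0, 1 and 0 were lower with total-count scaling, DESeq2 and thinned cells, and 0 to 2 with a library left out. For the class difference, 0 members were lower at 25 h with total-count scaling, no low-count filter or the stricter filter and 0 to 1 with a library left out, and 0 to 1 were higher at 13 h with a library left out. Shares of cells were higher in both 25 h libraries for 4 members unthinned and lower for 5 at 3000 UMIs, among them Cdx1, whose share was higher at 5000 UMIs.

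Replicate numbers did not pair the libraries (correlations of deviations from -0.01 to -0.03 across genes), and the replicate block changed no other count of members. Values that changed sign are log2 values of members not called, ranges are over libraries left out, and the cause was not tested. In enterocytes, Prdm1 at 13 h was -0.24 with the stricter filter and ranged from -0.086 to 0.16 with a library left out. Cdx1 at 25 h ranged from -0.023 to 0.074. Klf5 at 25 h was -0.031 without the low-count filter, -0.0090 with DESeq2, -0.049 with thinned cells, -0.0087 with only the 2 groups and -0.016 to -0.0028 with a library left out. In goblet cells at 13 h, total-count scaling gave 0.014 for Cdx1 and 0.035 for Gata6, which ranged from -0.32 to 0.037. At 25 h Cdx2 was -0.011 without the low-count filter and ranged from -0.081 to 0.084, Gata6 was 0.014 in thinned cells, Cdx1 ranged from -0.027 to 0.21 and Klf5 from -0.15 to 0.36. Between the times, Hnf4g was -0.018 with total-count scaling (range -0.21 to 0.27), Klf4 was -0.080 in thinned cells, and Gata6 was 0.27 in thinned cells (range -0.27 to 0.081). For the class difference at 13 h, total-count scaling gave 0.13 for Cdx1 (range -0.11 to 0.16) and 0.053 for Cdx2 (range -0.23 to 0.022). At 25 h Klf5 was -0.029 with the stricter filter (range -0.18 to 0.37) and Cdx1 ranged from -0.064 to 0.17.

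Depth limits Prdm1 in every class and Maf in goblet cells. With groups of 2 libraries, the edgeR p-values rest on a spread pooled over the 3 groups and drawn towards that of other genes. They cover these libraries only.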
